A study of Mus musculus with 31 samples.

Results

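Foxa1/2 binding sites of mouse lung adenocarcinomas lacking Nkx2-1 were ordered by the strength of their peaks and set against 4 histone marks of tumors of the same kind. The sites were all peaks of the deposited Foxa1/2 list of Nkx2-1-deleted tumors that lie on chromosomes 1 to 19, which gave 14282 of the 14526 peaks of that list. The other 244 lay on chromosome X (239) or on unplaced pieces (5). All peaks of the 3 peak lists of the series together numbered 67347. Each peak was placed by its summit, the single base with the most reads, and ranked into deciles, groups of equal number from the lowest to the highest, by the score that the peak caller gave it.

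Every sample came from a lung adenocarcinoma of a mouse of mixed 129/B6 strain, aged 4 to 7 months, and the tumors used here carried the Nkx2-1 status deleted. The 2 Foxa1/2 libraries were labelled female and came from the tester-control pairs E and F, and 1 antibody (Santa Cruz sc-6553) against both Foxa1 and Foxa2 was used. The histone libraries, 2 for each of H3K27ac, H3K4me1, H3K4me3 and H3K27me3, came from pair I (labelled male) and pair J (labelled female). Binding and marks thus came from different pairs. Pair I differs from the Foxa1/2 libraries in labelled sex, and whether pair J came from other animals than E and F was not checked. Tumors had been started by an intratracheal adenovirus or lentivirus, and tamoxifen had been injected at a low or a high dose. Which sample received which, and the alleles that drive the tumors, are not given in the sources used here. Positive tumors, which retain Nkx2-1 and served for comparison, carry the same strain and age labels. The 2 files of each of the 11 groups were identical byte for byte, so each group is 1 merged list. No spread between replicates exists, and no p-value was computed. All intervals below are 95% intervals that cover counting error only, and the number of the 19 autosomes that share a direction is given beside them. Those autosomes come from the same libraries and are not replicates.

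Foxa1 and Foxa2 belong to the forkhead family of transcription factors and act in epithelia that derive from the endoderm, lung included. They are known as pioneer factors, which bind their sites on nucleosomal DNA and help to open chromatin for other factors. H3K4me1 marks enhancers, active or poised, and flanks promoters. H3K27ac marks active enhancers and promoters, and H3K4me3 is laid down most densely at the starts of transcribed genes. H3K27me3 is the mark of Polycomb-repressed chromatin. Nkx2-1 is a homeodomain factor of the lung lineage that binds many of the same regions as Foxa1/2 in lung epithelium.

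The score is a measure of how unlikely the read pile-up is over its control, on a scale that begins at 60 in this list. It had a median of 152 and a maximum of 3233. The Foxa1/2 list of positive tumors had the same maximum, and whether this is an upper limit of the score was not tested. The lowest decile held 1429 peaks with scores of 60 to 70 and a median of 65. The highest held 1428 peaks with scores of 725 to 3233 and a median of 1121. A stronger peak was also a wider one. The median peak width was 738 bp in the lowest decile and 1226 bp in the highest, and Spearman's rho between score and width was 0.81 over the 14282 peaks, as a description. Deciles of each within classes of the other are therefore given further on, which separates score and width only in part. Each mark came as a list of islands, stretches of 200-bp windows enriched in reads. There were 60744 autosomal islands of H3K27ac, 65348 of H3K4me1, 30230 of H3K4me3 and 49382 of H3K27me3. The reads within them came to 30.7 M, 29.4 M, 19.2 M and 19.3 M.

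Nearly all Foxa1/2 summits lay in chromatin carrying enhancer marks, and the stronger the peak, the more often this was so. An H3K4me1 island covered the summit at 95.2% of the peaks and an H3K27ac island at 86.4%. H3K4me3 covered 37.7% and H3K27me3 3.75%. The same islands covered 11.9%, 9.04%, 2.53% and 18.1% of the autosomes, so the first 3 marks lay at summits 7.97, 9.56 and 14.9 times as often as their cover would give, and H3K27me3 only 0.207 times as often. These directions held on all 19 autosomes.

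From the lowest to the highest decile of the score, the share of summits under H3K27ac went from 75.3% (73.0 to 77.5) to 96.1% (95 to 97), a difference of 20.9 points (18.4 to 23.3). For H3K4me1 it went from 89.1% to 98.8%, a difference of 9.73 points (8.06 to 11.5). For H3K4me3 it went from 30.0% to 45.9%, a difference of 15.9 points (12.4 to 19.4). All 3 differences were above 0 on each of the 19 autosomes, and each share was higher than in the decile before it at 8 of the 9 steps. For H3K27me3 the share went the other way, from 5.39% (77 summits) to 1.4% (20 summits), a difference of -3.99 points (-5.37 to -2.69), below 0 on 17 autosomes and above 0 on 1.

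**Figure D1:**
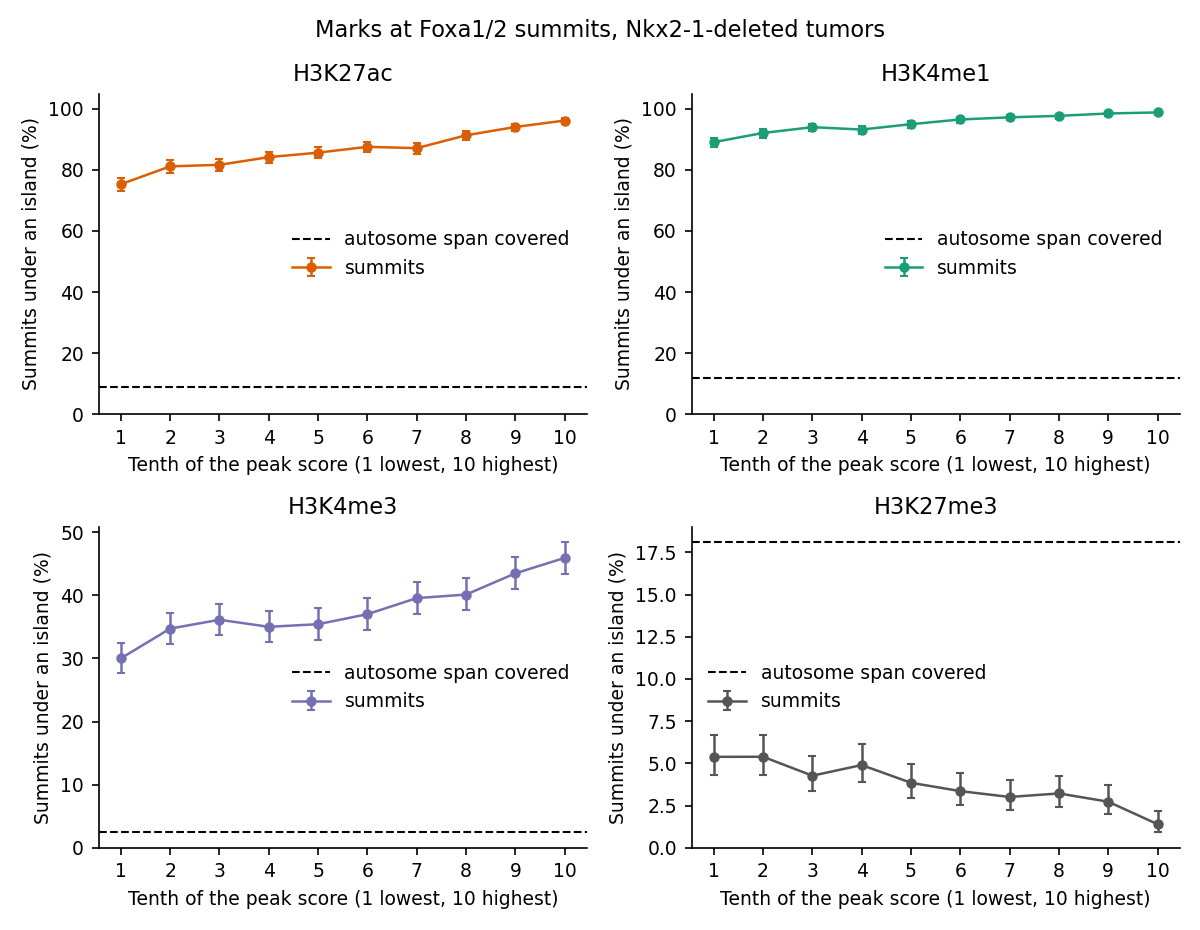
Share of Foxa1/2 summits (%, points with 95% Wilson intervals) under an island of each mark, by decile of the peak score from 1 (lowest) to 10 (highest), in Nkx2-1-deleted tumors; the dashed line is the share of the autosomes that the islands cover. H3K27ac, H3K4me1 and H3K4me3 end higher than they begin, at 96.1%, 98.8% and 45.9%, and H3K27me3 ends lower, at 1.4%. The vertical axes differ between panels and all begin at 0.

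Combinations of marks showed what the weak sites lacked. Summits with H3K4me1 as their only mark, the state of a primed enhancer without acetylation, made up 12.2% of the lowest decile and 2.73% of the highest (difference -9.52 points, -11.5 to -7.64, below 0 on 19 of 19 autosomes). Summits with none of the 4 marks made up 3.51% of all peaks, 8.68% of the lowest decile and 0.560% of the highest. The pair H3K27ac and H3K4me1 without the other marks, the usual picture of an active enhancer, was the most frequent state among those counted, with 47.9% of all peaks. It changed less, from 44.7% to 50.1% (5.35 points, 1.69 to 9.0, above 0 on 13 autosomes). The combination of H3K27ac, H3K4me1 and H3K4me3 took 27.8% of the lowest decile and 44.7% of the highest (16.9 points, 13.4 to 20.3, above 0 on 19 of 19). H3K27ac without H3K4me1 was rare, at 75 of 14282 summits. H3K4me3 without H3K27ac was rarer, at 67 summits.

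The additional H3K4me3 at strong sites was of a sparse kind. Read density, the reads of an island per kb of its width, had a median of 117.6 reads per kb over the 30230 autosomal H3K4me3 islands. At the summits of the lowest decile the median density was 235 reads per kb (153 to 291, 429 summits), above the median of the list. At the summits of the highest decile it was 65.8 reads per kb (60 to 72.5, 656 summits), below it. The ratio of the 2 medians was 0.280 (0.222 to 0.434). With quintiles of the score in place of deciles, to leave enough summits on each chromosome, the ratio was below 1 on 19 of 19 autosomes. The islands were also somewhat narrower, with a median of 2200 bp in the lowest decile and 1800 bp in the highest (ratio 0.818, 0.707 to 0.943).

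The islands were then split at that list median. The dense class alone was a listed alternative, and the sparse and densest classes were added after these values had been seen. Sparse H3K4me3 islands covered 19.2% of all summits and dense ones 18.5%. Sparse islands covered 11.9% (10.3 to 13.7) of the summits of the lowest decile and 30.1% (27.8 to 32.5) of the highest. That is a difference of 18.2 points (15.3 to 21.1), above 0 on 19 of 19 autosomes, and the share was higher at each of the 9 steps. Dense islands covered 18.1% (16.2 to 20.2) and 15.8% (14.0 to 17.8), a difference of -2.30 points whose interval (-5.05 to 0.457) includes 0. Among the densest islands, above 312.9 reads per kb, where 50% of all island bases lie, the share was 12.9% in the lowest decile and 9.10% in the highest, a difference of -3.84 points (-6.15 to -1.55), below 0 on 17 autosomes. Of the H3K4me3 summits, 43.1% in the lowest decile and 19.8% in the highest lay above that value, so by the share of island bases even weak peaks lay in the less dense part of the mark. By this split, the higher share of H3K4me3 at strong peaks lay in the sparse islands. The split uses the same densities as the medians above, so it describes the same pattern by class and is no separate evidence. Tumor tissue is a mixture of cells, and a mark on fewer cells and a lower level of it per cell cannot be told apart in a read density.

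**Figure D2:**
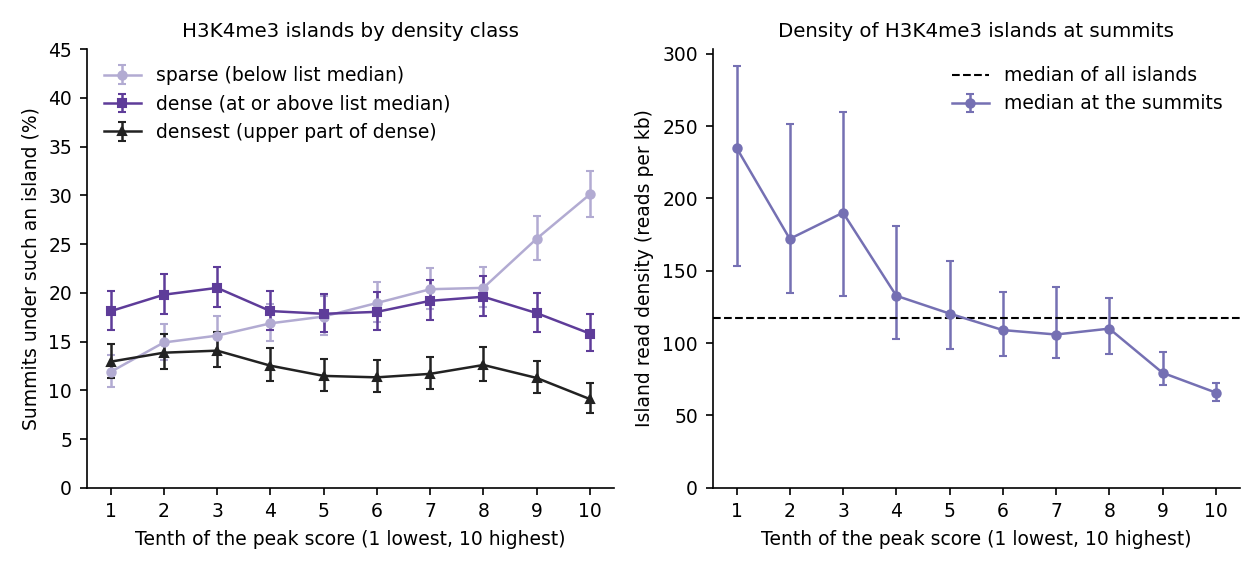
Left, share of Foxa1/2 summits (%, 95% Wilson intervals) under H3K4me3 islands of 3 density classes by decile of the peak score; right, median read density (reads per kb, 95% intervals) of the H3K4me3 island at the summit, with the median of all islands dashed. The sparse class climbs from 11.9% to 30.1% while the dense class stays between 15.8% and 20.5%, and the median density goes from 235 to 65.8 reads per kb. The densest class is part of the dense one.

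Seen from the islands, the number of summits per Mb also differed with density. This count uses the same summits and densities as above, so it is no separate evidence. H3K4me3 islands of the lowest decile of density held 190 Foxa1/2 summits per Mb, and those of the highest decile held 48.6. The number per Mb was lower at each step between them. The denser islands were also wider, with a median of 1000 bp in the lowest decile and 2800 bp in the highest. Counted per island, 22.8% (21.3 to 24.3) of the lowest decile and 14.2% (13.0 to 15.5) of the highest held a summit, with no steady order between them, since the share was 14.1% in decile 6 and 18.3% in decile 8. H3K27ac islands showed the opposite order, with 15.8 summits per Mb in the lowest decile of density and 76.4 in the highest, and H3K4me1 islands went from 5.64 to 63.3. H3K27me3 islands held 1.01 to 1.42 summits per Mb in every decile. The median score of the peaks differed too. It was 226 at summits in the least dense decile of H3K4me3 islands and 130 in the densest, against 106.5 and 187 for H3K27ac. Dense H3K4me3 summits still lay in strongly acetylated chromatin: their H3K27ac islands had a median of 231 reads per kb, against 160 at sparse H3K4me3 summits and 113 at summits with H3K27ac and H3K4me1 only.

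Strong peaks lay in wider and denser islands of the enhancer marks. Strong peaks were also wider, and among peaks of like width the intervals of the island width ratios include 1, as given further on. The median H3K27ac island at the summit was 5900 bp wide (5400 to 6400) in the lowest decile and 9600 bp (9200 to 10200) in the highest, a ratio of 1.63 (1.48 to 1.81). Its density was 134 and 173 reads per kb, a ratio of 1.29 (1.22 to 1.36). The H3K4me1 island was 6400 and 9200 bp wide (ratio 1.44, 1.31 to 1.64) with 106 and 120 reads per kb (ratio 1.13, 1.09 to 1.16). Between the upper and the lower quintile all 4 ratios were above 1 on 19 of 19 autosomes. Much of the step lay in the last 2 deciles, as the plot of island width and density shows. The median over all islands of the list, wherever they lie, was 2200 bp and 69.0 reads per kb for H3K27ac and 2800 bp and 78.1 reads per kb for H3K4me1, below the values of the lowest decile. A wide island has more room for a summit, so the median weighted by bases is the fairer reference. For H3K27ac it was 5400 bp and 113 reads per kb, and 52.2% of the lowest decile and 75.1% of the highest lay in wider islands than that. For H3K4me1 it was 6600 bp and 96.6 reads per kb. There 47.2% of the lowest decile and 62.0% of the highest lay in wider islands, so the weakest peaks were not in wider H3K4me1 islands than the bases of that mark give. Within a decile the spread was broad: in the highest, the middle 50% of H3K27ac islands ran from 5600 to 17400 bp. Spearman's rho between score and island width or density lay between 0.095 and 0.13 for the enhancer marks, a weak relation given as a description.

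**Figure D3:**
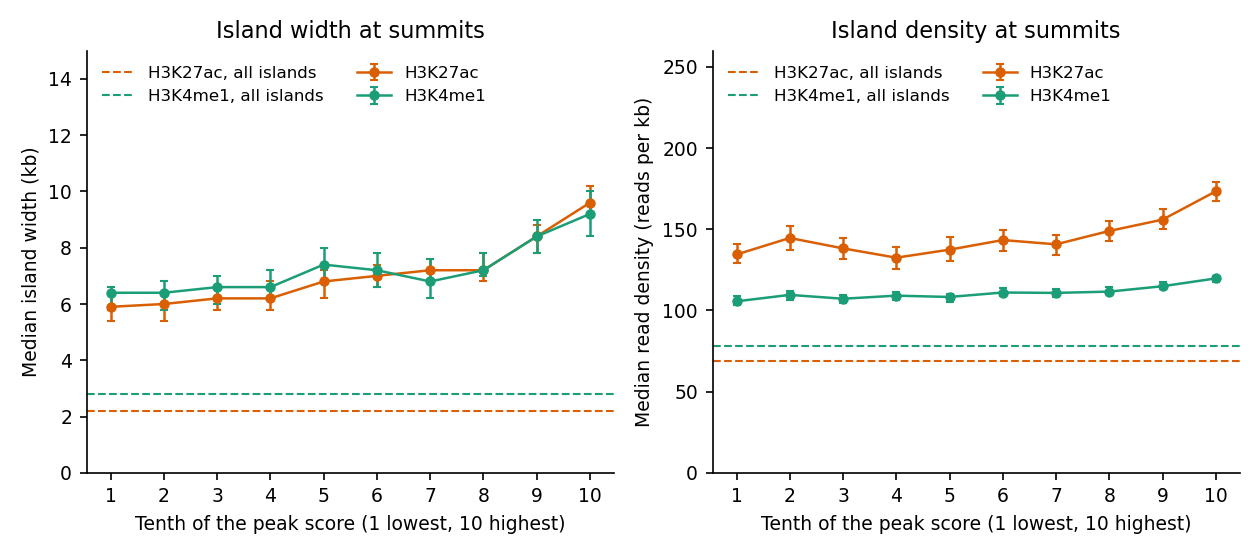
Median width (kb, left) and median read density (reads per kb, right) of the H3K27ac and H3K4me1 islands at Foxa1/2 summits by decile of the peak score, with 95% intervals; dashed lines are the medians of all islands of the mark. Both marks lie above these unweighted medians in every decile, and the H3K27ac island goes from 5.9 to 9.6 kb and from 134 to 173 reads per kb. The median weighted by bases is not drawn. For H3K4me1 width it is 6600 bp, above the 6400 bp of the lowest decile.

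Among peaks of like width, the differences between high and low scores were smaller. For H3K4me3 and for the width of the enhancer islands, the intervals included no difference. When the deciles were formed within 5 classes of peak width, the median width was 879 bp in the lowest decile and 913 bp in the highest, while the median score still went from 78 to 438. The differences then became 7.38 points (4.94 to 9.83) for H3K27ac and 3.35 points (1.82 to 4.92) for H3K4me1. For H3K4me3 it was 2.52 points (-1.05 to 6.07), for sparse H3K4me3 2.10 points (-0.786 to 4.98), and for H3K27me3 -0.829 points (-2.17 to 0.493), all with intervals that include 0. The ratio of H3K4me3 densities was 0.891 (0.665 to 1.19). The H3K27ac island was 1.09 times as wide (0.983 to 1.18) and the H3K4me1 island also 1.09 times (0.967 to 1.16), with intervals that include 1. Their density ratios were 1.08 (1.01 to 1.17) and 1.03 (1.01 to 1.06). The score range within a width class was narrower than over the whole list, so smaller differences are part of the construction.

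The converse ordering, deciles of peak width within 5 classes of the score, was added after this had been seen. There the median score was 145 and 167, and the median width went from 730 to 1224 bp. The share under H3K4me3 went from 32.8% to 48.1% (15.3 points, 11.8 to 18.9) and that under sparse H3K4me3 from 13.2% to 29.1% (15.8 points, 12.9 to 18.8). Dense H3K4me3 took 19.6% and 19.1%. The H3K4me3 density ratio was 0.360 (0.283 to 0.542), and the H3K27ac island was 1.53 times as wide (1.4 to 1.68). Wide peaks thus differed from narrow ones of like score in H3K4me3 by 15.3 points, against 15.9 points between strong and weak peaks. The intervals of the 2 orderings within classes do not overlap, but the orderings are not equal contrasts. The median widths stayed near the 738 and 1226 bp of the score deciles. The median scores within width classes, 78 and 438, spanned less than the 65 and 1121 of those deciles. Which of score and width counts for more was therefore not tested. For H3K27ac (10.5 points) and the absence of marks (-3.70 points, against -3.07 points for the score within width classes), both orderings gave differences whose intervals exclude 0.

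**Figure D4:**
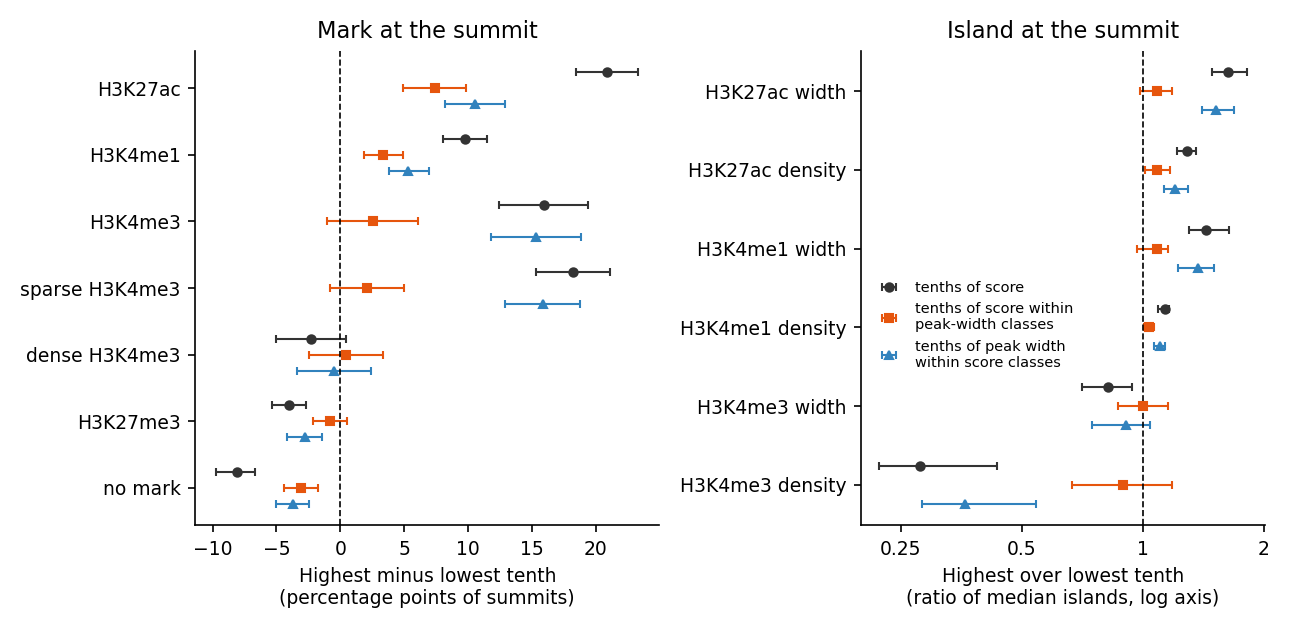
Left, difference between the highest and the lowest decile in the share of summits under each mark (percentage points); right, ratio of the median width or density of the island at the summit (log axis); bars are 95% intervals and dashed lines mark no difference. For H3K4me3 the ordering by peak width within score classes (15.3 points, triangle) is close to the ordering by score (15.9 points, circle), and the ordering by score within width classes is at 2.52 points (square).

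Summits lay towards the middle of the enhancer islands. If each summit fell anywhere in its own island with equal chance, 50% would lie in the central 50% of the width. That value and the others named below as uniform placement are exact expectations for summits moved within their islands, computed without drawing positions. The observed share was 70.2% (69.4 to 71.0) for H3K27ac, 66.3% (65.5 to 67.1) for H3K4me1 and 60.5% (59.2 to 61.8) for H3K4me3, above 50% on 19 of 19 autosomes each. For H3K27me3 it was 52.1% (47.8 to 56.3), above 50% on 10 autosomes, so no preference was detectable with 536 summits. Island ends were avoided. Within 200 bp of an end lay 1.87% of the summits under H3K27ac, against 8.39% for uniform placement, and 0.853% of those under H3K4me1, against 8.23%. For H3K27me3 the 2 shares were 5.97% and 4.50%.

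Strong peaks were more central than weak ones in islands of the enhancer marks. Strong peaks were also wider, and position within classes of peak width was not tested. In H3K27ac islands the central share was 64.6% (61.7 to 67.4) in the lowest decile and 74.5% (72.1 to 76.7) in the highest, a difference of 9.92 points (6.25 to 13.6). It was 7.87 points (4.27 to 11.4) in H3K4me1 islands and 9.60 points (3.67 to 15.5) in H3K4me3 islands. The H3K4me3 value pools islands whose mix differs between deciles. In dense ones the central share was 51.7% (45.7 to 57.8) and 54.4% (47.9 to 60.8), intervals that overlap, and in sparse ones 62.4% (54.9 to 69.3) and 71.4% (66.9 to 75.5), which also overlap. The mean distance to the end of an H3K4me3 island, relative to uniform placement, was 1.09 in the lowest decile and 1.1 in the highest. The mean distance to the nearer island end was 4268 bp for the highest decile in H3K27ac islands, against 3454 bp for uniform placement in the same islands. The central share also went with the width of the island. For H3K4me1 the central share was 84.5% in islands of 1000 to 2000 bp and 53.7% (51.8 to 55.7) in islands of 20000 bp or more. For H3K27ac it was 46.9% (36.4 to 57.7) in the 81 summits of islands under 1000 bp, 75.8% from 1000 to 2000 bp, 78.8% from 2000 to 5000 bp and 57.2% (55.0 to 59.4) in those of 20000 bp or more. In H3K4me3 islands of 5000 to 10000 bp the share was 47.7% (44.3 to 51.2), so no central preference was detectable there. Sparse H3K4me3 islands had 66.7% of their summits in the central part (65.0 to 68.5) and dense ones 54.0% (52.0 to 55.8). Sparse islands were narrower (median 1200 bp at summits, against 3800 bp), and the part of width in this difference was not tested.

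**Figure D5:**
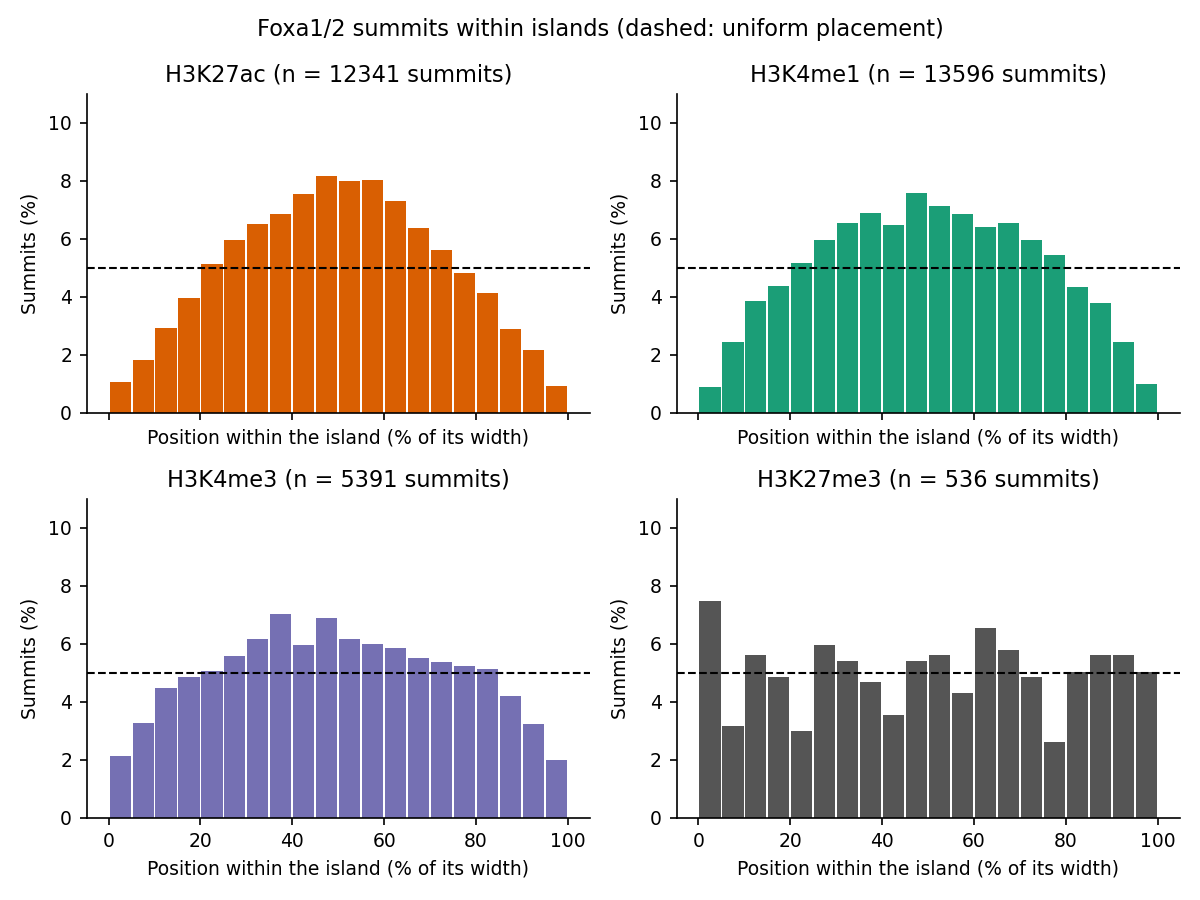
Position of Foxa1/2 summits within the island that covers them, as a percentage of its width from the lower coordinate (horizontal axis, 20 bins), with the share of summits per bin (vertical axis, %) and uniform placement at 5% dashed. The H3K27ac and H3K4me1 distributions are domed, the H3K4me3 distribution is flatter, and the H3K27me3 distribution has no peak in the middle.

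Within one island of a mark, summits coincided with the other active marks more than the rest of the island did. Of summits in H3K4me1 islands, 90.2% were also under H3K27ac, which covered on average 80.4% of the bases of those same islands. For H3K4me3 the values were 39.4% (38.5 to 40.2) at the summit and 19.6% of the bases. In both cases the summit share was higher on 19 of 19 autosomes. The gap for H3K4me3 widened with the score. In the lowest decile 33.4% of summits compared with 20.0% of bases, and in the highest 46.1% with 19%. The total H3K4me3 cover of the islands therefore hardly differed between weak and strong peaks, while the share at the summit did. Sparse H3K4me3 accounted for most of the wider gap. It had 30.5% of the summits and 8.77% of the bases in the highest decile, a ratio of 3.47. In the lowest it had 13.3% and 6.32%, a ratio of 2.10. The sparse cover was thus higher at strong peaks, and the dense cover was lower, at 10.2% against 13.7%. H3K4me3 was also narrow around the summit: at 2000 bp to either side it covered 13.0% and 13.2% of positions, against 37.7% at the summit itself. H3K27me3 covered 3.08% (2.80 to 3.39) of the summits and 3.79% of the bases of the H3K4me1 islands that hold them, lower at the summit on 19 of 19 autosomes.

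Most islands held no Foxa1/2 summit, and those that did mostly held 1. Of 60744 H3K27ac islands, 50843 held none, 8265 held 1, 1151 held 2, 317 held 3 and 168 held 4 or more. Had the 12341 summits been dealt to the islands in proportion to width, 1340 islands would hold 2, 282 would hold 3 and 112 would hold 4 or more. Pairs were thus fewer, and islands with 4 or more summits were 1.50 times as many. Islands with 2 or more together came to 0.943 times the expected number (0.898 to 0.990) for H3K27ac and 0.944 times (0.901 to 0.989) for H3K4me1. This small deficit did not hold for the upper 50% of peaks by score, where the ratio was 1.08 (0.998 to 1.16) for H3K27ac and 1.05 (0.977 to 1.14) for H3K4me1. For H3K4me3 the ratio was 0.515 (0.459 to 0.576), from 307 islands. For H3K27me3 it was 2.66 (1.63 to 4.12), from 20 islands only. No pair of summits in an island that held 2 lay closer than 490 bp, a spacing that bounds how many summits a narrow island can hold.

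Islands with several summits were wide and densely marked. A wide island has more room for summits, so their width is in part given by construction, and no expected width was computed. H3K27ac islands had a median width of 2000 bp and 63.8 reads per kb with no summit, 4800 bp and 114 reads per kb with 1, 12000 bp and 182 reads per kb with 2, and 33700 bp and 250 reads per kb with 4 or more. The single peaks in them were hardly stronger, with a median score of 161 in islands with 1 summit and 177 in those with 4 or more. The best peak of the island had a median score of 749 in the latter, but the best of several is higher by construction. Of the 2 summits of an H3K27ac island, the one with the higher score lay nearer the centre in 55.1% of 1146 islands (52.3 to 58.0). The value was 52.5% (49.7 to 55.2) for H3K4me1 and 48.7% (42.8 to 54.6) for H3K4me3, both with intervals that include 50%. Across the 1151 H3K27ac islands with 2 summits, Spearman's rho between the 2 scores was -0.011, as a description.

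The largest number of summits in an island was 11, found in 1 H3K27ac and 2 H3K4me1 islands. The H3K27ac island lay at chr7:86413601-86465600 (build mm9, coordinates counted from 1) and was 52000 bp wide, a width that gives 2.87 summits. It was picked for its number of summits, so a number above that value is in part given by the choice. Its density of 308 reads per kb lay above that of 97.8% of the islands. The scores of its summits ran from 71 to 595, and the closest pair lay 923 bp apart. An H3K27ac island at chr11:86379201-86444600 held 10 summits with scores from 69 to 2439, and one at chr5:93265601-93332800 held 9 with scores from 70 to 217. The H3K4me1 islands with the most summits lay at chr5:93236201-93369200 (11 summits in 133000 bp), chr7:86413001-86470200 (11 in 57200 bp) and chr4:45456401-45546200 (10 in 89800 bp). The first 2 overlap H3K27ac islands just named. None of these 6 islands carried any H3K27me3, and H3K4me3 covered 15.5% to 38.8% of their bases. Gene names are not given for these regions because the annotation used here belongs to a different build than the files, and the identity of the tumor cells was not checked against marker genes here.

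The 5 peaks with the highest scores all lay under H3K27ac and H3K4me1. The peak at chr9:61186475-61187996 and the one at chr10:27947159-27948681 shared the top score of 3233. The former also lay in an H3K27me3 island of 37800 bp, at 80.6% of its width, and was thus one of the 20 summits of the highest decile under that mark. The peak at chr5:99712878-99714450 had a score of 3221, and the nearest H3K4me3 island lay 30788 bp from its summit. The peak at chr9:61751539-61752828, also with a score of 3221, lay in an H3K4me3 island of 30.0 reads per kb, at percentile 1.56 of the densities of that list. The last of the 5, at chr15:37064827-37066080 with a score of 3183, lay in a dense H3K4me3 island of 362 reads per kb. All 5 overlapped a Foxa1/2 peak of positive tumors, and 4 of them overlapped an Nkx2-1 peak.

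Summits without any mark were weak on the whole, with a median score of 91, against 158 for summits with H3K27ac and H3K4me1 only and 202 for those with sparse H3K4me3. The strongest of them was an exception at chr11:97760564-97761778. It had a score of 1730, rank 309 in the list, with the nearest H3K4me1 island 12948 bp and the nearest H3K27me3 island 453 bp away. The next, at chr5:111064544-111065701 (score 1216) and chr14:17051223-17052248 (score 994), lay 2623 and 20653 bp from the nearest H3K4me1 island. These 3 peaks overlapped Foxa1/2 peaks of positive tumors and no Nkx2-1 peak. Some summits of strong peaks that missed an H3K27ac island missed it narrowly. Within 500 bp of one lay 36.4% (24.9 to 49.6, 55 summits) of those in the highest decile, and 14.7% (11.4 to 18.8, 353 summits) of those in the lowest. The median distances were 4824 and 6726 bp, so most were not near misses.

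Under H3K27me3 lay 536 summits, of which 273 also had H3K27ac and 263 did not. The latter were weaker, with a median score of 103, against 130 for the former. H3K27me3 without H3K27ac took 3.15% of the lowest decile and 0.490% of the highest (difference -2.66 points, -3.73 to -1.72). The strongest peaks under H3K27me3, after the top-scoring one above, lay at chr13:97732375-97733589 (score 1831) and chr7:25111888-25113160 (score 1813). The former lay in an H3K27me3 island of 72200 bp, had H3K27ac and H3K4me1 at its summit, and overlapped no Foxa1/2 or Nkx2-1 peak of positive tumors. The width of the H3K27me3 island (ratio 1.07, 0.481 to 3.67) and its density (ratio 0.931, 0.828 to 1.09) gave no detectable difference between the deciles, with 20 summits in the highest.

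Strong sites of deleted tumors were mostly sites that positive tumors also had. A Foxa1/2 peak of positive tumors overlapped 94.7% (93.4 to 95.7) of the highest decile and 42.7% (40.1 to 45.3) of the lowest. An Nkx2-1 peak of positive tumors overlapped 58.4% and 29.7%. The shares over all 14282 peaks are not given here. A wider peak has more room for an overlap, and the median width was 1226 bp in the highest decile and 738 bp in the lowest. Peaks of the lowest decile had scores of 60 to 70, at the lower limit of the list. The part of either in these shares was not tested. Among the summit classes the Nkx2-1 share was 56.8% at sparse and 54.3% at dense H3K4me3, 35.5% at H3K27ac and H3K4me1 only, 2.28% at H3K27me3 without H3K27ac, and 1.79% (9 of 502) where no mark lay. Those unmarked sites overlapped a positive-tumor Foxa1/2 peak in 42.0% of cases, close to the 42.7% of the lowest decile. Their median score was 91, and the parts of score and class in these shares were not separated.

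The relation between score and marks was not confined to tumors without Nkx2-1. The Foxa1/2 list of positive tumors (22611 autosomal peaks) and the Nkx2-1 list (29265) were treated in the same way against islands of positive tumors. From the lowest to the highest decile the share under H3K27ac differed by 14.9 points (13.0 to 16.7) for Foxa1/2 and 9.26 points (7.71 to 10.8) for Nkx2-1, against 20.9 points here. The share under H3K4me3 differed by 25.1 points (22.4 to 27.9) and 17.4 points (15 to 19.8), against 15.9 points. The density of the H3K4me3 island had a ratio of 0.594 (0.442 to 0.694) for Foxa1/2 in positive tumors and 0.309 (0.278 to 0.356) for Nkx2-1, against 0.280. The central share in H3K27ac islands was 67.7% and 67.8%, against 70.2%. Each direction was the same in the 3 lists. Scores, list lengths and island lists differ between tumor types, and tumor type and labelled sex coincide for Foxa1/2, so the sizes of these differences cannot be assigned to the loss of Nkx2-1. When the peaks of deleted tumors were set against the islands of positive tumors, the H3K4me3 share differed by 17.6 points (14.0 to 21.2) and the density ratio was 0.590 (0.465 to 0.754). That ratio is close to the one of the positive-tumor Foxa1/2 list and lies outside the interval obtained with the islands of deleted tumors.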

How the data were processed

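Peaks of Foxa1/2 and islands of 4 histone marks came from chromatin immunoprecipitation and single-end sequencing of lung tumors. Tools named in the submitters' processing notes are Bowtie, MACS 1.4.2 and SICER 1.1. Their build is mm9, and no roles are stated. Each deposited peak has a score from the authors' peak caller, with a p of 1e-06 in the list's name. Each deposited island has a read count, which the authors left unscaled. The names of the island lists state windows of 200 bp and an FDR of 0.01, with gaps of 200 bp for H3K27ac and H3K4me3 and of 600 bp for H3K4me1 and H3K27me3. Score and density (count per kb) were used within a list only.

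Computed here were deciles of the score, the island at each summit, and exact expectations for uniform placement within islands of at least 400 bp, with no draws. Shares have 95% Wilson intervals, differences of shares Newcombe intervals, and medians order-statistic intervals that were combined on the log scale for ratios. Python 3.11.15, numpy 2.4.6 and matplotlib 3.10.9 were used, and the scripts were tested on made-up summits with known answers. Named regions are the 5 highest-scoring peaks, the 3 highest with no mark, the 3 highest under H3K27me3, and for H3K27ac and H3K4me1 the 3 islands with most summits. The peaks and the measures were chosen with earlier results of these data known. Inputs (9 samples) were not used here. Genes and motifs were not analysed here, since the reference belongs to a different build.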

Additional observations from a re-analysis of the deposited data

Results flagged for a closer look

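On chromosome X, which the comparisons leave out, lay 239 Foxa1/2 peaks of deleted tumors, a signal outside the main measurement. Their median score was 130. Islands covered their summits in 72.0% (66.0 to 77.3) of cases for H3K27ac, 86.6% (81.7 to 90.4) for H3K4me1, 21.3% (16.6 to 27) for H3K4me3 and 8.79% (5.82 to 13.1) for H3K27me3. On the autosomes the values were 86.4%, 95.2%, 37.7% and 3.75%, and each lies outside the interval for chromosome X. The Foxa1/2 libraries were labelled female and the histone libraries came from both sexes, and the part of this in the differences was not tested.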

How the results depend on the processing

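Of 108 alternative values for 26 results, 66 lay within the main interval, 38 moved outside it and 4 reversed. Reversed were the H3K4me3 difference with the upper 50% (-2.30 points) or upper 25% (-2.86) of islands by density, which leave out the sparse islands, and the ratio of islands with 2 or more summits for the upper 50% of peaks by score (1.08 H3K27ac, 1.05 H3K4me1), whose cause was not tested. Within peak-width classes the differences were 7.38 (H3K27ac), 3.35 (H3K4me1), 2.52 (H3K4me3) and -0.829 points (H3K27me3), and the ratios of width and density 1.09 and 1.08 (H3K27ac), 1.09 and 1.03 (H3K4me1), 1.00 and 0.891 (H3K4me3). Quintiles, which narrow the contrast, gave 16.9, 8.05 and 12.3 points (H3K27ac, H3K4me1, H3K4me3) and density ratios of 1.19 and 1.09 (H3K27ac, H3K4me1). The upper 50% of islands gave 28.1 and 21.3 points for H3K27ac and H3K4me1. The upper 25%, chosen after seeing the data, gave 28.5, 20.3 and, for H3K27me3, -1.47 points. Taking the best peak of each island gave width and density ratios of 2.30 and 1.61 (H3K27ac) and 1.95 and 1.23 (H3K4me1), a choice that favours strong peaks in wide islands. The excess in the central 50% of H3K27ac, H3K4me1 and H3K4me3 islands was 25.7, 21.7 and 12.6 points with 1 summit per island and 15.2, 13.3 and 8.11 after joining islands up to 1000 bp apart. With islands of at least 2000 bp it was 14.8 (H3K4me1) and 3.30 points (H3K4me3). In such islands the excess of the other mark over its cover was 10.5 (H3K27ac) and 21.1 (H3K4me3) points in H3K4me1 islands, and 10.2 (H3K4me1) and 20.1 (H3K4me3) in H3K27ac islands. Islands with 2 or more summits came to 0.609 times expected for joined H3K4me3 islands and 4.79 times for H3K27me3 with the upper 50% of peaks. Adding chromosome X, or leaving out the densest 0.1% of islands, moved no value outside its interval. No paired analysis was possible because each group is 1 merged list. Depth is known only as reads within islands. Values for H3K27me3 in the highest decile rest on 20 summits.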
